A study of Mus musculus with 6 samples.

Results

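The interleukin-1 (IL-1) family genes described here are 10 genes of the mouse: the receptors Il1rl1, Il1rl2, Il1r1, Il1r2 and Il1rap, the ligands Il1a, Il1b, Il18 and Il33, and the antagonist Il1rn. They are 10 of the 34797 gene names on the array and are read by 14 of its 55681 probes, found by the gene name in the scanner files. The family was chosen by its values: Il1rl1 holds the largest difference between the knockouts of any probe, so its values, and every member's difference between the knockouts, are given as a description with no test.

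RNA of immortalized murine embryonic fibroblasts (MEF) was hybridised to 1-colour arrays in 3 groups of 2. The groups were wild type (WT) MEF, MEF lacking the RNA-binding protein TIA1 (TIA1 KO) and MEF lacking its relative TIAR (TIAR KO), with no treatment named. The labels give the background as W4 for WT, BALB/c for TIA1 KO and C57BL/6 for TIAR KO, so genotype, background and cell line cannot be told apart. The study calls its replicates independent, without saying whether they came from separate embryos, and each p-value below measures only the spread between such arrays.

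IL-1 family ligands are cytokines that bind a receptor chain, which then recruits a second chain and signals through the adaptor MyD88 and the IRAK kinases to NF-kB and MAP kinases. IL-33, bound by the Il1rl1 product ST2, and IL-1, bound by the Il1r1 product, share the accessory chain encoded by Il1rap. Il1rl1 gives a membrane receptor and a soluble form that binds IL-33 without signalling, the latter known from growth-stimulated fibroblasts. TIA1 and TIAR bind U-rich and AU-rich stretches of mRNAs and are known to repress the translation of cytokine mRNAs.

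The probes that carry the main differences are shown by their first 30 of 60 bases, because each gene is read only where its probe binds. The 3 probes of Il1rl1 come first, since they read different ends of the gene's transcripts. All 5 lie on the plus strand of mm9, as the scanner files place them.
Il1rl1 A_51_P339793, chr1:40504769-40504828, NM_010743 (transcript variant 2): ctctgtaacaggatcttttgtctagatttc
Il1rl1 A_55_P2027731, chr1:40520014-40520073, NM_001025602 (transcript variant 1): ccttacccaaattgccattacagtcgagca
Il1rl1 A_55_P2027737, chr1:40522187-40522246, NM_001025602 (transcript variant 1): gccattgactccttgtgtgttttcttcatg
Il33 A_55_P1964960, chr19:30035101-30035160, NM_001164724: gtgaatctgtacgatatctttaaagtagta
Il18 A_66_P105046, chr9:50389761-50389820, NM_008360: aggatgaaaatggggataaatctgtaatgt
The probe of variant 2 reads the transcript of the soluble form and starts at its base 2563, and those of variant 1 read the membrane form's transcript from bases 2825 and 4998. The GC content was 35.0% in each of these 5 probes.

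Values below are normalized log2 intensities, given for WT, TIA1 KO and TIAR KO in that order. A probe counts as well above background on an array where the scanner software flagged at least 50% of its spots so. Of the 14 probes, 8 (of 5 genes) passed on both arrays of some group, and 6 passed on none of the 6 arrays. Levels of different probes are not compared, since each probe binds with its own strength.

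The targeted genes were read on every array first, as a check of the labels. Tial1, the gene of TIAR, read 11.71 and 11.09 in WT, 11.85 and 11.49 in TIA1 KO and 10.00 and 9.65 in TIAR KO on probe A_51_P441942, where both TIAR KO arrays were the lowest and the difference from WT of -1.58 ± 0.26 passed (limma, adjusted p = 0.0254). On A_66_P127432 it read 13.22 on the WT array whose spot was kept (that of replicate 1 was dropped as an outlier), 14.07 and 13.69 in TIA1 KO and 9.57 and 11.60 in TIAR KO, a difference in TIAR KO of -2.63 ± 0.87 (adjusted p = 0.200). Tia1 read 9.56 and 9.90 in WT, 7.57 and 8.65 in TIA1 KO and 9.98 and 8.63 in TIAR KO on A_55_P2052370, and 10.72 and 8.54, 7.87 and 8.44, and 9.56 and 9.58 on A_66_P116912. Its means were lowest in TIA1 KO on both, but the differences from WT of -1.62 ± 0.42 (limma, adjusted p = 0.116) and -1.47 ± 0.79 (adjusted p = 0.288) did not pass. The remaining Tia1 probe, A_55_P2052377, read 7.44 and 7.25 in WT, 7.88 and 8.54 in TIA1 KO and 7.45 and 7.45 in TIAR KO, well above background on 1 TIA1 KO array alone. Where the deletions lie relative to these probes is not given in the sources used here.

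Il1rl1 was high in TIA1 KO MEF on each of its probes and low in the other groups. Probe A_51_P339793 read 8.17 and 8.55 in WT, 16.90 and 17.34 in TIA1 KO and 7.65 and 8.03 in TIAR KO, well above background on all 6 arrays. The TIA1 KO arrays stood far above all others, whereas those of TIAR KO lay below both WT arrays. The log2 difference from WT was 8.76 ± 0.25 (SE, n = 2 arrays per group) in TIA1 KO, a 433-fold higher intensity, and -0.52 ± 0.21 in TIAR KO. Between the knockouts it was -9.28 ± 0.25 (TIAR KO minus TIA1 KO), ranked 1 among all probes, while the TIA1 KO difference from WT ranked 2. With common median scaling the differences from WT were 7.61 in TIA1 KO and -0.90 in TIAR KO. They were 9.38 and -1.52 with the scanner's processed intensities, where the median of all probes was 1.98 in TIA1 KO and -0.04 in TIAR KO.

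Both probes of the membrane form's transcript were likewise highest on the TIA1 KO arrays, though WT and TIAR KO overlapped on A_55_P2027731. Probe A_55_P2027737 read 8.23 and 8.27 in WT, 14.97 and 15.26 in TIA1 KO and 8.19 and 8.07 in TIAR KO, a log2 difference from WT of 6.87 ± 0.18 for TIA1 KO and of -0.12 ± 0.14 for TIAR KO. Both TIAR KO arrays lay just below the WT arrays on this probe. Probe A_55_P2027731 read 6.83 and 7.46 in WT (well above background on 1 of 2 arrays), 9.34 and 9.47 in TIA1 KO, and 7.09 and 6.89 in TIAR KO (on 0 of 2). Its TIA1 KO difference from WT was 2.26 ± 0.26. That between the knockouts was -2.41 ± 0.17, which stands for at least 4.78-fold lower because TIAR KO was at background. With the scanner's processed intensities these differences became 4.81 and -6.26. That setting moved the median of all probes to 1.98 and -1.85 in these comparisons, so the size on this dim probe depends on the processing. The probes bind with different strengths, so they do not give the ratio of the membrane to the soluble form.

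**Figure D1:**
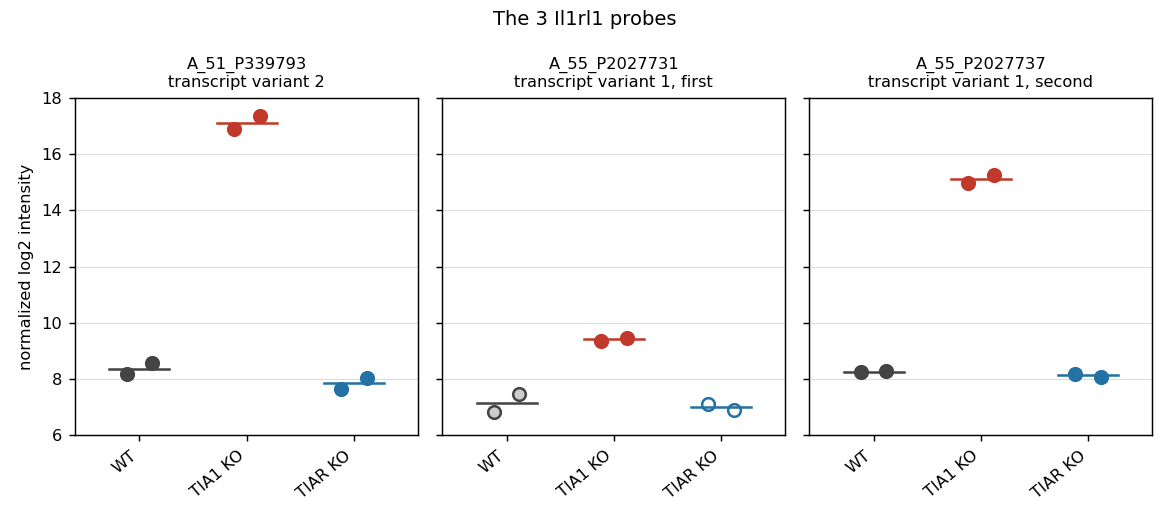
Normalized log2 intensity (y axis) of the 3 Il1rl1 probes on each array, by group; lines are group means, and points are filled where both arrays of a group were well above background, grey where 1 was and open where none was. The 2 TIA1 KO arrays are the highest on each probe, at 16.90 and 17.34 on the probe of variant 2.

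Il1r1 encodes the signalling receptor of IL-1 alpha and IL-1 beta. Its probe (A_51_P271503, chr1:40372667-40372726, NM_008362) read 10.18 and 10.89 in WT, 10.74 and 10.86 in TIA1 KO and 12.59 and 12.73 in TIAR KO. Both TIAR KO arrays lay above the other 4, whereas the TIA1 KO values fell between those of WT. The difference from WT was 2.12 ± 0.26 in TIAR KO (limma, adjusted p = 0.0105), a 4.35-fold rise, and 0.26 ± 0.29 in TIA1 KO (adjusted p = 0.563). The TIA1 KO value has no settled direction, being -1.20 and called lower with common median scaling (where the median of all probes was -0.67 and 15801 probes were called, 11.9% of them higher), -0.41 with processed intensities (where that median was 1.98) and -0.09 without replicate 1 of WT. The TIAR KO call was lost when either TIAR KO array was left out, with differences of 2.19 without replicate 1 and 2.05 without replicate 2. It was also lost with the scanner's processed intensities (1.80 ± 0.30) and when the fold of 2 was itself tested.

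Il1rap encodes the accessory chain that IL-1 and IL-33 receptors share, and the array holds 3 probes for it. The brightest (A_52_P467232, chr16:26701498-26701557, NM_134103, variant 2) read 9.27 and 9.27 in WT, 7.48 and 8.56 in TIA1 KO (1 of 2 well above background) and 7.97 and 7.83 in TIAR KO. All 4 knockout arrays lay below both WT arrays, and the TIA1 KO arrays differed more between themselves than those of the other groups. Il1rap fell by 1.37 ± 0.14 in TIAR KO (limma, adjusted p = 0.00598), while in TIA1 KO the difference of -1.25 ± 0.40 did not pass (adjusted p = 0.149). That value rested on single arrays: it was -0.71 without replicate 1 of TIA1 KO, and -1.78 and called without replicate 2, and it was also called with common median scaling (-1.68). The TIAR KO call was lost when all 3 groups were fitted together and when the fold of 2 was itself tested, with the difference kept at -1.37.

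The probe of Il1rap variant 1 (A_55_P2041422, chr16:26716515-26716574, NM_008364) read 8.37 and 8.44 in WT, 7.15 and 7.32 in TIA1 KO and 7.55 and 7.80 in TIAR KO. Again the knockout arrays were all below WT. Here the TIA1 KO difference passed, at -1.17 ± 0.16 (limma, adjusted p = 0.0459) or at least 1.65-fold lower, since no TIA1 KO array was well above background. The TIAR KO difference of -0.73 ± 0.16 did not (adjusted p = 0.0584), so the probes differ in which comparison passes. The TIA1 KO call of this probe was lost in 10 of 15 alternatives, among them the deposited log2 values (-1.18) and leaving out either WT array (-1.20 and -1.13). Probe A_55_P2041432 was not well above background on any array.

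Il1r2, which encodes a decoy receptor for IL-1, and Il1rl2, which encodes the receptor of the IL-36 cytokines, were not well above background on any array. The Il1r2 probe ranged from 6.28 to 7.18 and the Il1rl2 probe from 6.59 to 7.05 over the 6 arrays, so no fold is given for either.

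**Figure D2:**
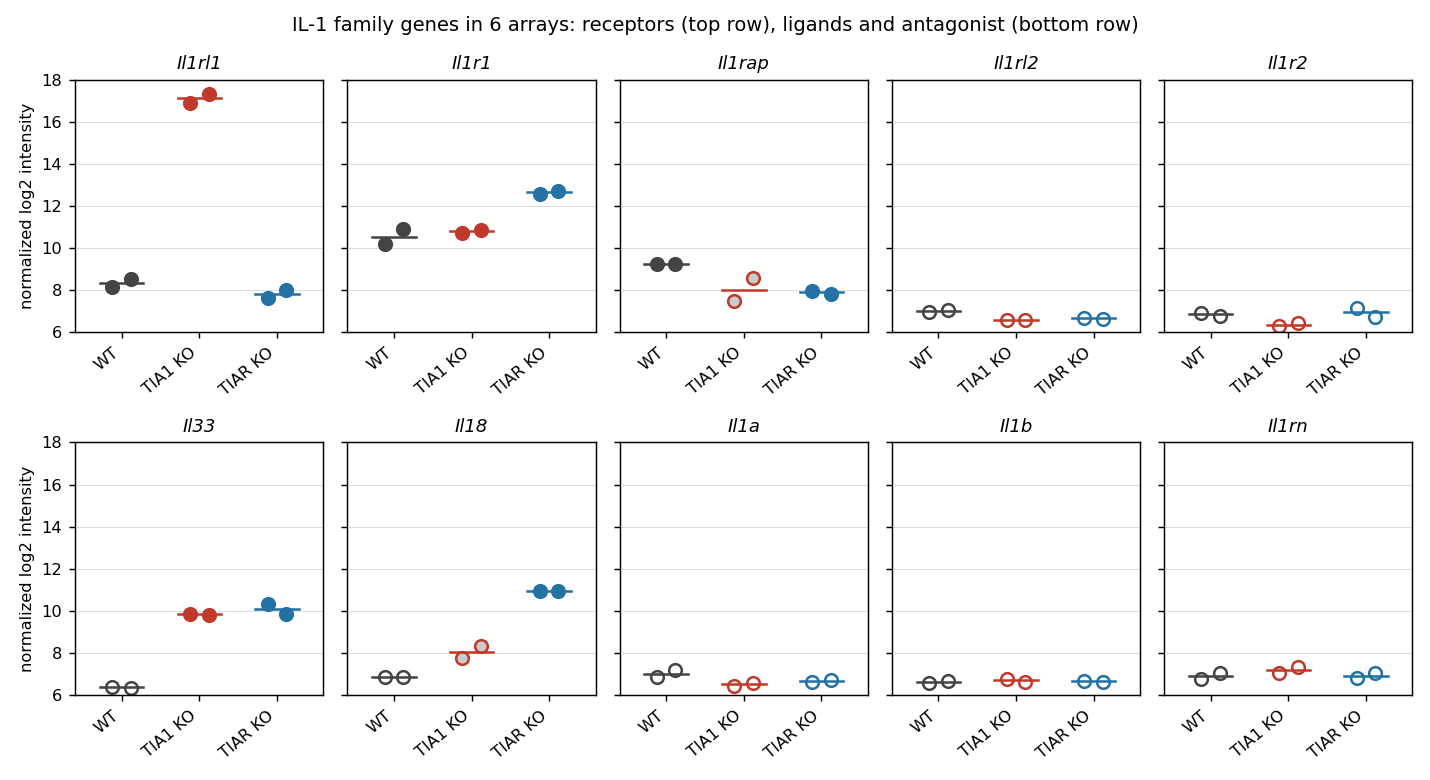
Normalized log2 intensity (y axis) of the 10 genes on each array, by group, from the brightest probe of each gene; lines are group means, and the fill of the points shows how many arrays of a group were well above background (filled 2, grey 1, open 0). Il1rl1 is highest in TIA1 KO and Il1r1 and Il18 in TIAR KO, Il33 is high in both knockouts, and 5 genes have open points in all groups.

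Among the ligands, Il33 was above background in both knockouts and Il18 in TIAR KO, and neither was in WT. Il33 encodes the ligand of ST2, a nuclear cytokine released from damaged cells. Its probe read 6.40 and 6.34 in WT, not well above background, 9.85 and 9.81 in TIA1 KO and 10.31 and 9.87 in TIAR KO. All 4 knockout arrays lay well over both WT arrays, and the knockouts' values ran close to each other.

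Il33 was higher than in WT by 3.46 ± 0.15 in TIA1 KO (limma, adjusted p = 0.00535) and by 3.72 ± 0.19 in TIAR KO (adjusted p = 0.000697). Because WT was at background, these stand for at least 7.69-fold and at least 9.20-fold. Bounds of this kind hold only for the normalization used here. With common median scaling the differences were 2.54 and 3.52, the first a smaller fold than its bound. For such a bound the dim group is set, array by array, to the higher of its own value and the lowest intensity of any probe well above background there. The knockouts differed by 0.26 ± 0.21 (TIAR KO minus TIA1 KO).

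Il18 encodes a cytokine made as a precursor that inflammatory caspases cleave. Its probe read 6.84 and 6.86 in WT, 7.76 and 8.31 in TIA1 KO (1 of 2 arrays well above background) and 10.95 and 10.95 in TIAR KO. The 3 groups did not overlap, with TIA1 KO between the others. The TIAR KO difference from WT was 4.09 ± 0.14 (limma, adjusted p = 0.000254), at least 15.2-fold. It was 3.78 with the deposited log2 values and 3.68 by quantiles without loess, both smaller folds than this bound. Processed intensities gave 6.77. In TIA1 KO the adjusted p was 0.0864, and no fold is given because neither group had both arrays above background. TIAR KO exceeded TIA1 KO by 2.91 ± 0.24.

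Il1a and Il1b, the genes of IL-1 alpha and IL-1 beta, were not well above background on any array, and neither was Il1rn, the gene of the receptor antagonist. Their probes stayed within 6.44 to 7.17, 6.59 to 6.78 and 6.75 to 7.35. Il1b is read by 10 spots of 1 probe, of which 8 to 10 were kept on each array, and 0 of them were flagged well above background on any array. Differences below the background level were not detectable for these 3 genes.

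**Figure D3:**
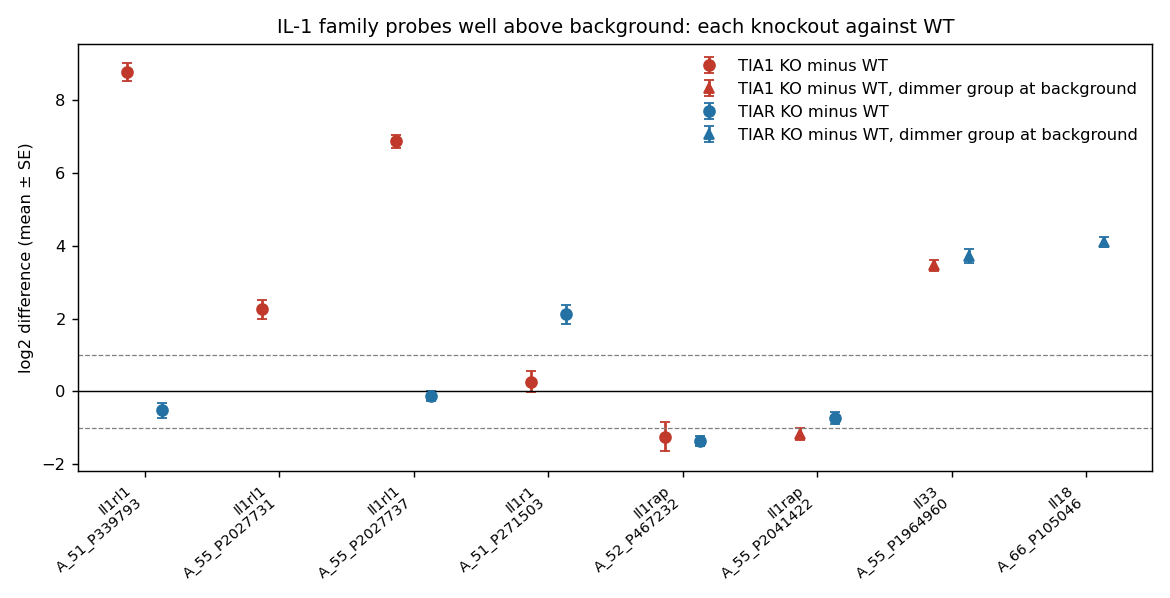
log2 difference from WT (y axis, mean ± SE, n = 2 arrays per group) of the IL-1 family probes with both arrays of a compared group well above background; triangles mark differences in which the dimmer group had no such array (WT for Il33 and Il18, TIA1 KO for Il1rap), and dashed lines a fold of 2. Il1rl1 lies at 8.76 in TIA1 KO and near 0 in TIAR KO, Il33 lies above 3 in both, and the Il1rap probes lie below 0.

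Calls needed a fold above 2 and an adjusted p (Benjamini-Hochberg, over all probes) under 0.05, read from the brightest probe of each gene. In TIA1 KO against WT the calls were 2 higher, Il1rl1 and Il33, beside 2.18% of all 55681 probes called higher and 1.36% lower. Among measured gene names (the brightest probe well above background on both arrays of a compared group), 4.98% were called higher and 3.31% lower, and 4 of the 10 members were so measured. No member was called lower (0 by limma, 3 at an unadjusted p under 0.05), but with common median scaling 2 were called higher and 2 lower (Il1r1 and Il1rap). That scaling called 15801 of all 55681 probes, 11.9% of them higher. Of the calls of Il1rl1 and Il33, Il1rl1 was selected on its values, so the count is a description.

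In TIAR KO against WT the calls were 3 higher, Il18, Il1r1 and Il33, and 1 lower, Il1rap. The shares of all probes were 3.39% higher and 2.37% lower, and those of measured names 8.32% and 5.39%, with 5 of the 10 members measured. Between the knockouts, a fold above 2 alone held for 5.38% of all probes in the direction of TIAR KO and 6.59% in that of TIA1 KO. Of the 14 member probes, 2 passed it in the first direction (Il18, Il1r1) and 3 in the second (all of Il1rl1), from which nothing is read because this contrast chose the family. The median log2 difference of the member probes was 0.17 in TIA1 KO, against -0.09 over all probes, and -0.14 in TIAR KO, against -0.02. These medians include the 6 member probes not well above background on any array.

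The TIA1 KO calls rested on both WT arrays. With either WT array left out, limma called 0 of all probes and 0 members (3 members at an unadjusted p under 0.05), although Il33 kept a difference of 3.43 to 3.49. With processed intensities limma likewise called 0 of all 55681 probes in TIA1 KO, Il33 (6.39 ± 0.51) among those lost, and 8 members had an unadjusted p under 0.05. On the slide, TIA1 KO took a row of its own and cannot be told apart from it, and replicate 1 of TIA1 KO had a median raw intensity of 458 and 16021 probes well above background, against 119 to 218 and 19996 to 26295 on the other 5. Without that array 3 members were called (3 higher), and without the other TIA1 KO array 3 as well (2 higher, 1 lower). The part of slide row and array brightness in these differences was not tested.

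The receptor genes on chromosome 1 lie next to each other, in the order Il1r2, Il1r1, Il1rl2, Il1rl1, Il18r1 and Il18rap on mm9. Within 500 kb of the Il1rl1 probes there were 17 probes of other names, including Map4k4, Gm16894 and noncoding regions on one side and Slc9a4, Slc9a2, Mfsd9 and Tmem182 on the other. Counting those of Il1rl1, 20 probes lay there, of which only 6 were measured in each comparison with WT. In TIA1 KO none of the 17 was called (0 by limma, 2 at an unadjusted p under 0.05), and in TIAR KO 1 was, that of Il1r1, 132 kb away. Beside these stand 2.18% higher and 1.36% lower of all probes in TIA1 KO and 3.39% and 2.37% in TIAR KO, so nothing particular to the neighbourhood is read from the counts. The neighbour Il18rap, which encodes a chain of the IL-18 receptor, read 7.45 and 7.73 in WT, 8.62 and 9.23 in TIA1 KO and 7.10 and 6.72 in TIAR KO. No group had both arrays above background for it, so its order of groups carries no fold.

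**Figure D4:**
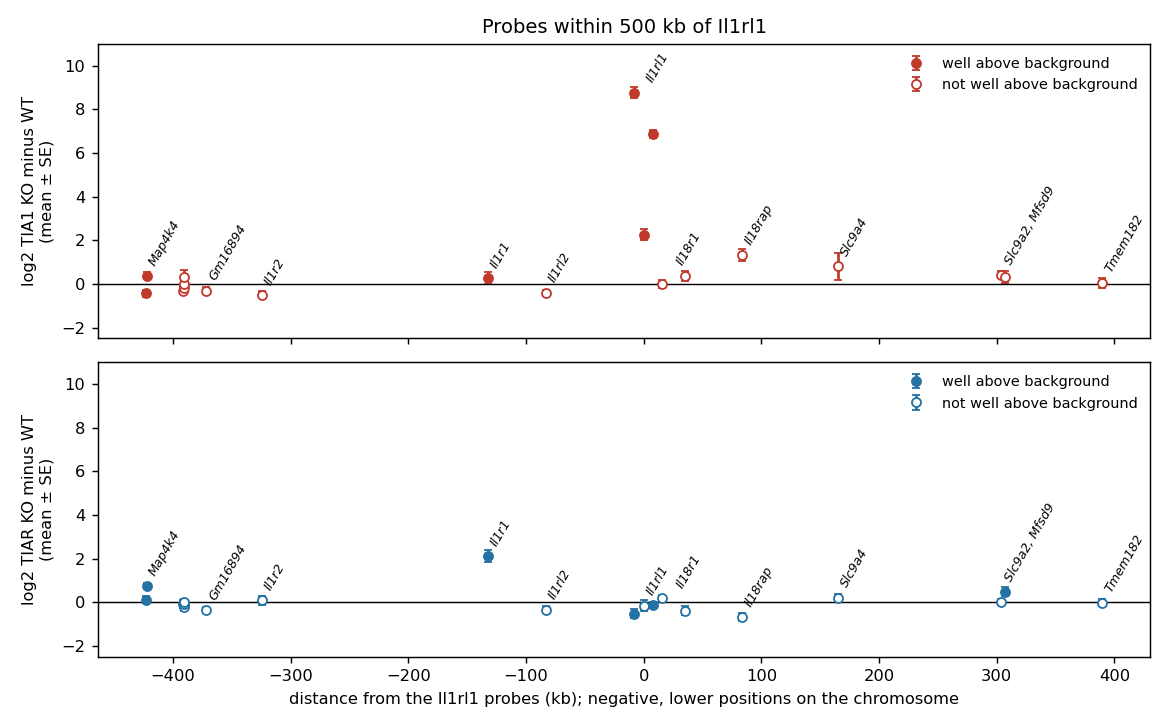
log2 difference from WT (y axis, mean ± SE) of each probe within 500 kb against its distance from the Il1rl1 probes in kb (x axis, the 3 Il1rl1 probes drawn near 0), for TIA1 KO (top) and TIAR KO (bottom); filled points had both arrays of a compared group above background. In TIA1 KO the Il1rl1 probes lie at 8.76, 6.87 and 2.26 and Il18rap is an open point, and in TIAR KO Il1r1 lies at 2.12.

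RefSeq promoter windows of GRCm38.p6 were available for all 10 genes (15 windows), and those of Il1rl1 and the second of Il33 are shown because they belong to the receptor ST2 and to its ligand. Capitals mark the motifs GATAA (or its reverse complement) and TATAAA, searched on both strands in the 250 bases before each start, of which the last 120 are printed. The array does not tell which start was used.
Il1rl1, first start, plus strand, chr1:40429450-40429569: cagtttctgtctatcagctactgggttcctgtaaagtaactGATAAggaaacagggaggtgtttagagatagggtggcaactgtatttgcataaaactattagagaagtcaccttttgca
Il1rl1, second start, plus strand, chr1:40439509-40439628: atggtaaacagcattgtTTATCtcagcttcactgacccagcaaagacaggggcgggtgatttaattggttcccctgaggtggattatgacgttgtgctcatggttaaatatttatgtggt
Il33, second start, plus strand, chr19:29945670-29945789: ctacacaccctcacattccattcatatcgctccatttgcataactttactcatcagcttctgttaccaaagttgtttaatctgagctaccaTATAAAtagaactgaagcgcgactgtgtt
GATAA, the core of GATA factor sites, was present in both windows of Il1rl1, at 79 and 216 bases before the first start and, reversed, at 103 before the second. It was present in 22.6% of all 32851 windows and in 4 of the 15 of the family. TATAAA, the TATA box core, was found 29 bases before the second start of Il33 and in 12.4% of all windows. Of the family's 15 windows 6 held it, those of Il18, Il1a, Il1b and Il1rl2 and both of Il33. The AP-1 motif TGANTCA was found in windows of Il1a and Il1rn alone among the members, and in 6.7% of all. The NF-kB consensus was found in 1 window of Il1rn and in 1.4% of all. No match in the windows of the family overlapped one of another motif, and such matches describe letters only.

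Genes with the pattern most like a member's were found by the Euclidean distance between 6-array log2 profiles, each set against its own WT mean, over 18313 gene names, each read from its brightest probe where both arrays of some group were above background. Those nearest to Il1rl1 were Gjb2 (distance 1.16), Lrrc32 (1.91), Prl2c5 (1.98), Sfrp2 (2.09) and Efemp1 (2.55). Gjb2, a gap junction protein gene, read 6.48 and 6.47 in WT, 14.63 and 14.94 in TIA1 KO and 6.56 and 6.63 in TIAR KO. Prl2c5 belongs to a group of near-identical prolactin family genes that 1 probe may not tell apart. Nearest to Il33 were Pcdhb16 (0.60), Cd97 (0.62) and Anxa8 (0.65), and nearest to Il18 were Gcnt1 (0.47), Foxo6 (0.57) and Islr (0.76). The profiles come from the same 6 arrays and were picked for their likeness, so they carry no test.

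The other genes of the family were mostly at background. Of 11 such genes 2 were measured in each comparison, Il18bp, which encodes a secreted binder of IL-18, and Sigirr, which encodes an inhibitory receptor of the family. Sigirr read 8.99 and 9.07 in WT, 11.64 and 11.53 in TIA1 KO and 7.79 and 7.90 in TIAR KO. It rose by 2.55 ± 0.15 in TIA1 KO (limma, adjusted p = 0.00879) and fell by 1.19 ± 0.14 in TIAR KO (adjusted p = 0.00988), with no overlap between the 3 groups. The TIAR KO call was lost without replicate 1 of TIAR KO (-1.13) and when the fold of 2 was tested, and the TIA1 KO call with processed intensities (2.90). With common median scaling the TIA1 KO difference of Sigirr was 1.52. The median of all probes in TIA1 KO was -0.67 with that scaling and 1.98 with processed intensities. Il18bp read 8.92 and 8.56 in WT, 7.39 and 8.35 in TIA1 KO and 8.50 and 8.15 in TIAR KO and was called in neither comparison. The remaining 9, among them the IL-36 genes (Il1f5, Il1f6, Il1f8, Il1f9 on the array), gave no fold.

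Of 23 signalling genes of the pathway, 20 were measured in each comparison and 1 was called in each, higher in both: Casp4, the gene of an inflammatory caspase. Beside this stand the shares of measured names given above, 4.98% higher and 3.31% lower in TIA1 KO and 8.32% and 5.39% in TIAR KO, and nothing particular to the list is read from its count. Casp4 read 7.50 and 7.60 in WT, 10.43 and 10.56 in TIA1 KO and 10.30 and 10.44 in TIAR KO, rising by 2.94 ± 0.16 (limma, adjusted p = 0.00728) and 2.82 ± 0.15 (adjusted p = 0.000700). No signalling gene was called lower (0 by limma, 6 in TIA1 KO and 4 in TIAR KO at an unadjusted p under 0.05), and the median log2 difference was -0.32 and -0.14. The absence of lower calls in TIA1 KO depended on the processing and on 1 array. Common median scaling called 16 lower and 1 higher, fitting all 3 groups together 3 lower, and an intensity trend or a restriction to probes above background 1 lower each. Common median scaling called 15801 of all 55681 probes, 11.9% of them higher, and the fit of 3 groups 3986, 47.2% higher. Lower calls also appeared without replicate 2 of TIA1 KO, where more of all probes were called too. Nothing particular to the list is read from these counts.

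The adaptor gene Myd88 read 12.39 and 12.30 in WT, 11.84 and 11.86 in TIA1 KO and 12.26 and 12.00 in TIAR KO. Of the uncalled genes, Rela, a subunit of NF-kB, ranged from 14.13 to 15.09 and Tab1, which activates the kinase TAK1, from 13.69 to 13.99 over the 6 arrays. Chuk, an I-kappa-B kinase gene, ranged from 13.28 to 13.69, and Ecsit, a signalling adaptor gene, from 12.62 to 14.13.

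Genes known to respond to IL-1 moved in both directions. Of 27 such genes, 17 were measured in TIA1 KO against WT, where 1 was called higher and 2 lower, and 20 in TIAR KO against WT, where 5 were called higher and 4 lower. The shares of measured names were 4.98% higher and 3.31% lower in TIA1 KO and 8.32% and 5.39% in TIAR KO. With common median scaling the TIA1 KO targets were 1 higher and 9 lower, but 15801 of all 55681 probes were then called, 11.9% of them higher. The median log2 difference over the 27 was -0.01 in TIA1 KO and -0.12 in TIAR KO, and over the measured ones -0.445 and -0.225. The TIA1 KO calls of this list changed with the array left out, as did those over all probes.

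The chemokine genes did not share a direction. Ccl2, which encodes a chemoattractant of monocytes, read 17.66 and 17.72 in WT, 14.38 and 14.43 in TIA1 KO and 16.56 and 16.67 in TIAR KO, a fall by 3.29 ± 0.15 (limma, adjusted p = 0.00557) and by 1.07 ± 0.14 (adjusted p = 0.0134). The TIAR KO call of Ccl2 was lost when any 1 of its 4 arrays was left out (-1.13 to -1.01), when the fold of 2 was tested and with processed intensities (-1.12). Its TIA1 KO difference was -4.83 with common median scaling. Ccl7, which lies near Ccl2 and attracts monocytes too, read 12.35 and 12.41 in WT, 13.15 and 13.01 in TIA1 KO and 15.14 and 15.21 in TIAR KO. It rose by 2.79 ± 0.14 in TIAR KO (adjusted p = 0.000636), with 0.70 ± 0.16 in TIA1 KO (adjusted p = 0.0974).

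The neutrophil chemokine gene Cxcl1 fell by 1.72 ± 0.15 in TIA1 KO (limma, adjusted p = 0.0209) and by 2.21 ± 0.15 in TIAR KO (adjusted p = 0.00138). The TIA1 KO call of Cxcl1 was lost with the replicate number as a block (-1.72), when the fold of 2 was itself tested and with processed intensities (-2.09). With common median scaling the TIA1 KO difference of Cxcl1 was -3.14. The median of all probes in TIA1 KO was -0.67 with that scaling and 1.98 with processed intensities. Its relative Cxcl5 read 11.47 and 11.41 in WT, 11.64 and 11.92 in TIA1 KO and 8.07 and 8.22 in TIAR KO. Cxcl5 thus fell in TIAR KO, with a log2 difference of -3.29 ± 0.15 (limma, adjusted p = 0.000451), and did not pass in TIA1 KO (0.34 ± 0.18, adjusted p = 0.28).

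Ptgs2, the gene of the inducible prostaglandin synthase COX-2, moved in opposite directions. It read 10.83 and 11.27 in WT, 13.29 and 13.74 in TIA1 KO and 9.13 and 9.18 in TIAR KO, a rise by 2.47 ± 0.26 (limma, adjusted p = 0.0279) and a fall by 1.90 ± 0.19 (adjusted p = 0.00538). Testing the fold of 2 itself ended both calls, and the TIA1 KO call was also lost with common median scaling (1.03) and processed intensities (2.42). The median of all probes was -0.67 and 1.98 in these settings, so the 2.42 lies close to that of the typical probe. Ptges, the synthase gene downstream of it, ranged from 14.50 to 14.82 over the 6 arrays. Nfkbia, the gene of an NF-kB inhibitor, ranged from 14.00 to 14.80, and Bcl3 from 10.58 to 11.83. Tnfaip3, the gene of another NF-kB inhibitor, read 10.79 and 10.75 in WT, 11.67 and 11.72 in TIA1 KO and 9.67 and 10.08 in TIAR KO, groups that did not overlap. None of these 4 was called against WT.

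The remaining calls were rises in TIAR KO. The matrix metalloproteinase gene Mmp13 read 7.09 and 6.70 in WT and 10.25 and 10.21 in TIAR KO, at least 9.75-fold higher (limma, adjusted p = 0.000786), and Mmp3 was at least 3.35-fold higher (adjusted p = 0.00239). Mmp3 read 6.65 and 6.35 in WT, 8.04 and 9.07 in TIA1 KO (1 of 2 arrays well above background, adjusted p = 0.0811) and 8.59 and 8.67 in TIAR KO, so that the knockouts overlapped. The cytokine gene Il6 rose by 1.64 ± 0.15 (adjusted p = 0.00381), with 1 of 2 WT arrays well above background. The adhesion molecule gene Vcam1 rose by 1.62 ± 0.15 (adjusted p = 0.00368), from 14.22 and 14.28 to 15.94 and 15.79. Testing the fold of 2 itself ended the Il6 and Vcam1 calls, and processed intensities that of Vcam1 (1.55).

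**Figure D5:**
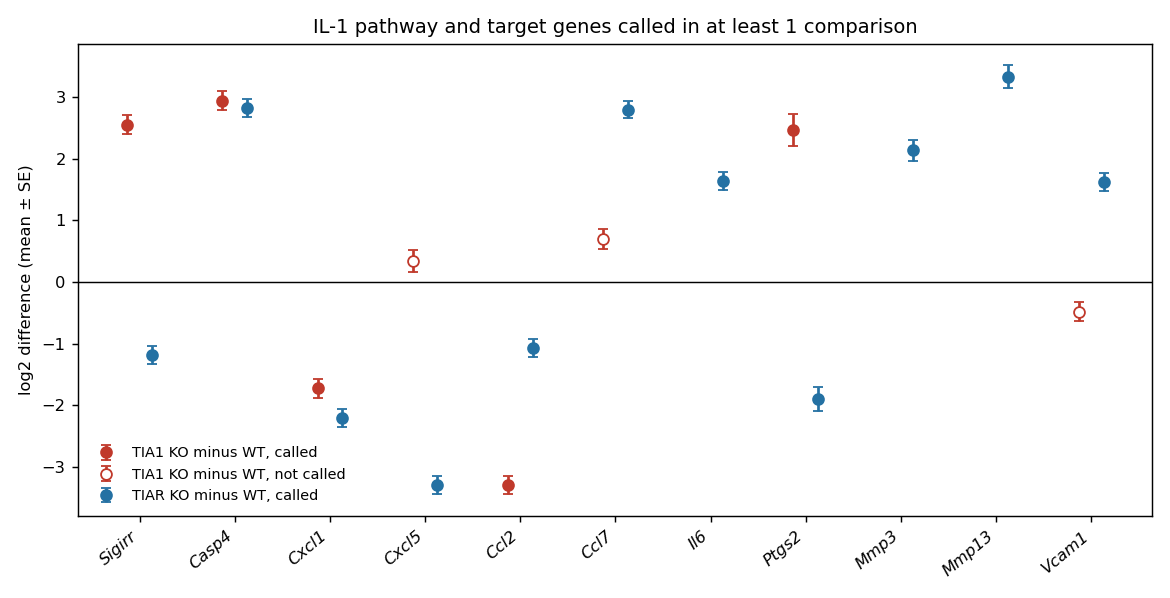
log2 difference from WT (y axis, mean ± SE, n = 2 arrays per group) of the IL-1 family, signalling and target genes called in at least 1 comparison, where both arrays of a compared group were above background; filled points passed the call and open points did not. Sigirr and Ptgs2 lie above 0 in TIA1 KO and below 0 in TIAR KO, and Casp4 lies near 3 in both.

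Markers of cell types were read as a check of the label and beside Il1rl1, which mast cells, T cells and macrophages can also express. Of 10 fibroblast markers, WT had 6 with both arrays well above background, TIA1 KO had 7 and TIAR KO had 9, and Lum had none on any array. Pdgfra was at background in WT, at 6.37 and 6.40. Thy1 was low in WT, at 6.63 and 6.98 (1 of 2 arrays well above background), and in TIA1 KO, at 7.11 and 7.48 (0 of 2). Dcn was above background on 1 of 2 arrays in WT, at 6.57 and 6.62, and in TIA1 KO, at 9.24 and 9.29. The fibroblast list was called higher for 6 genes in TIA1 KO, of which 5 were measured and Dcn was not, and for 7 in TIAR KO, beside 4.98% and 8.32% of measured names, the widest being Col3a1 in TIA1 KO at 6.32 ± 0.21 (limma, adjusted p = 0.00369) and Dcn in TIAR KO at 9.15 ± 0.14 (adjusted p = 0.000176). Its summed intensity was 492232 and 530910 in WT, 1064864 and 1021284 in TIA1 KO and 1213490 and 1242603 in TIAR KO.

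The mast cell markers Kit, Fcer1a and Cma1 were not well above background on any array, and no mast cell marker was above on both TIA1 KO arrays. Tpsb2 was above on both arrays of WT (8.24 and 7.92) and of TIAR KO (7.66 and 7.94). Cpa3 was above on 1 TIA1 KO array (9.13, the other 6.90) and Ms4a2 on the other (8.93, the first 7.17), where WT read 6.78 and 6.56 for Cpa3 and 6.48 and 6.54 for Ms4a2. The summed intensity of the 7 was 972 and 933 in WT, 1401 and 1376 in TIA1 KO and 950 and 1012 in TIAR KO. None of the 7 was called in either comparison (0 by limma, 2 in TIA1 KO and 1 in TIAR KO at an unadjusted p under 0.05). Only 1 of them, Tpsb2, was measured in each comparison. The shares of measured names were 4.98% higher and 3.31% lower in TIA1 KO and 8.32% and 5.39% in TIAR KO, so nothing is read from the absence of calls. Of the 7 T cell markers, Cd3d and Tcra were never well above background, while WT had 3 with both arrays above, TIA1 KO 2 and TIAR KO 3. Cd4 was above on all 6 arrays, from 10.40 to 11.19, and Cd3e on both arrays of WT (8.99 and 9.23) and of TIAR KO (8.64 and 9.07). Il7r read 6.65 and 6.73 in WT, 8.79 and 7.77 in TIA1 KO and 8.19 and 7.08 in TIAR KO, and Cd8a 6.95 and 6.52, 8.98 and 6.99, and 6.53 and 7.09, with 1 TIA1 KO array well above background for each and 1 TIAR KO array for Il7r. Gata3, a transcription factor gene that fibroblasts can express, was called higher in both knockouts, at 4.49 ± 0.16 (limma, adjusted p = 0.00418) and 3.74 ± 0.15 (adjusted p = 0.000367). The list's summed intensity was 3189 and 3520 in WT, 8348 and 7919 in TIA1 KO and 5096 and 6005 in TIAR KO. Gata3 was the brightest of the list in both knockouts, at 12.15 and 12.32 in TIA1 KO and 11.40 and 11.57 in TIAR KO. It read 7.68 and 7.81 in WT, so the higher sums mostly follow this gene and not the list.

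Of the 8 macrophage markers, Ptprc, Emr1, Lyz2 and Fcgr3 were never well above background, while WT had 4 with both arrays above, TIA1 KO 3 and TIAR KO 4. Cd68, Cd14 and Itgam were above on all 6 arrays, and Csf1r on all but 1 TIA1 KO array, with Cd68 from 10.15 to 11.66 and Csf1r from 8.81 to 9.66. Itgam, an integrin gene of myeloid cells, was called higher in TIA1 KO at 1.82 ± 0.23 (limma, adjusted p = 0.0415). Cd14, a myeloid receptor gene, was called lower in TIAR KO at -1.32 ± 0.18 (adjusted p = 0.0136). The summed intensity of the 8 macrophage markers was 11256 and 10561 in WT, 21396 and 18901 in TIA1 KO and 10012 and 9990 in TIAR KO. Itgam was the brightest of them in TIA1 KO, at 13.65 and 13.40 against 11.94 and 11.47 in WT. The higher sums in TIA1 KO mostly follow this gene and not the list. Keratinocyte markers summed to 3464 and 3746, 5338 and 4341, and 3805 and 4016 in the same order, with Trp63 well above background on all 6 arrays (10.74 to 11.86), Krt10 on all but 1 TIA1 KO array (9.65 to 10.37), Krt15 and Krt1 at background and Cdh1 called higher in TIAR KO (limma, adjusted p = 0.00371). Krt14 was above on both arrays of WT (7.87 and 7.95) and of TIAR KO (7.60 and 7.68). WT had 3 keratinocyte markers with both arrays above, TIA1 KO 1 and TIAR KO 4. Endothelial markers summed to 3203 and 3530, 3745 and 3551, and 3695 and 4070, with Kdr above background on all 6 arrays (11.23 to 11.65), Cdh5 and Emcn at background and none called (0 by limma, 1 in TIA1 KO and 2 in TIAR KO at an unadjusted p under 0.05). Pecam1 was above on both arrays of WT (7.86 and 8.09) and of TIAR KO (7.86 and 8.16). So was Vwf, at 8.07 and 8.43 in WT and 7.75 and 7.62 in TIAR KO. WT had 3 endothelial markers with both arrays above, TIA1 KO 1 and TIAR KO 3. Of the 6, 3 were measured in each comparison. The part of other cell types in the Il1rl1, Il33 and Il18 values was not tested, and in bulk RNA fewer cells of a type and less RNA per cell cannot be told apart.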

How the data were processed

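Total RNA was amplified, labelled with Cy3 and hybridised to 6 Agilent 1-colour arrays on 1 slide. The authors deposited scanner files with spot intensities and a table of normalized log2 values, which their methods describe as background correction by normexp (offset 50), loess and quantile scaling. Here the deposited mean and background intensities were corrected by normexp (offset 50), taken to log2, normalized by 1 pass of loess against the mean array and by quantiles, and averaged over the spots of each of 55681 probes after control and outlier spots were dropped. Each comparison was fitted on its own 4 arrays with limma 3.58.1 in R 4.3.3 (lmFit, eBayes), with Benjamini-Hochberg adjustment over all probes. Only 2 arrays per group limit the precision. The steps were tested on simulated data. These values and the deposited log2 values correlated at 0.997 or above on each array. Tables and figures were made with Python 3.11.15 and matplotlib 3.10.9.

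The members and the lists of other genes were chosen with earlier results of these data known. Named genes are all members, the called genes of each list (at most 10 per list and comparison), up to 4 bright uncalled genes as values, the neighbours within 500 kb of Il1rl1, the genes most like Il1rl1 (5), Il33 (3) and Il18 (3), and the deleted genes. Myd88 and the marker genes were added as values. Alternatives were another background correction and offset, other scalings, the deposited log2 values, filters, other fits, a replicate block and leaving out each array.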

Additional observations from a re-analysis of the deposited data

How the results depend on the processing

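Of 728 alternative values, 610 kept their direction and side of the threshold or stayed within range, 3 reversed, 50 lost the call with the direction kept (not always with a smaller difference), 2 gained it and 63 moved. The reversals so counted were the small Il1r1 difference in TIA1 KO, at -1.20 (called) with common median scaling, -0.41 with the scanner's processed intensities and -0.09 without replicate 1 of WT (0.62 without replicate 2). A change of sign in an untested difference that was not called was not counted as a reversal. Il1rap between the knockouts was -0.12 on A_52_P467232, but 0.05 with common median scaling and 0.42 without replicate 2 of TIA1 KO. On A_55_P2041422 it was 0.44, but -0.09 with processed intensities. Common median scaling, which shifted the median of all probes in TIA1 KO to -0.67, gave in TIA1 KO 4 members (2 higher, 2 lower), 4 other family genes (3 higher), 17 signalling genes (1 higher, 16 lower) and 10 targets (1 higher, 9 lower), and 3 signalling genes in TIAR KO (1 higher, 2 lower). It called 15801 probes in TIA1 KO, 11.9% of them higher (1969 and 61.6% as reported), and 4139 in TIAR KO, 34.4% higher (3206 and 58.8%). Processed intensities, which shifted the median of all probes to 1.98 in TIA1 KO against WT and to -1.85 between the knockouts, called 0 of all 55681 probes in TIA1 KO, and so 0 of each list (8 members at an unadjusted p under 0.05, limma). Fitting all 3 groups together gave 2 other family genes, 4 signalling genes and 5 targets in TIA1 KO, and 3986 probes. An intensity trend and a restriction to probes above background each gave 2 signalling genes in TIA1 KO. Testing against a fold of 2 (treat) left 1 target in TIA1 KO and 2 members, 0 other family genes and 5 targets in TIAR KO, with 440 and 1016 probes. The deposited log2 values gave 1293 probes in TIA1 KO. Il1rl1 between the knockouts was -8.51 with median scaling and -10.9 with processed intensities.

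With 1 array left out (the remaining array of that group was taken to vary as much as its comparison group), the TIA1 KO counts ran from 0 to 3 for members, 0 to 5 for other family and signalling genes and 0 to 7 for targets, each 0 without either WT array. Whole-table counts there were 3060 without replicate 1 of TIA1 KO and 10735 without replicate 2. In TIAR KO members ran from 3 to 4, other family genes from 0 (without replicate 1 of TIAR KO) to 1 and targets from 8 to 9. Replicate numbers did not pair the arrays (correlations of 0.0781, 0.0303 and -0.0723). With the replicate number as a block, the members called were 2 and 4, the targets in TIA1 KO 2 (Cxcl1 lost) and all probes 671 and 3308. The causes of these shifts were not tested.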
